A study of Homo sapiens with 24 samples.

Results

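Osteopontin, encoded by SPP1, and its receptor CD44 were followed on 24 one-colour Agilent SurePrint G3 arrays of 2 human hepatocellular carcinoma (HCC) cell lines. These are 2 of the 31204 genes and transcripts named on the array, and every non-control probe designed on a transcript of either was kept, which gave 3 of 58201 probes. SPP1 has 1 probe, printed 10 times per array and designed on transcript NM_001040058. CD44 has 2 probes, the first on NM_000610 and the second on NM_001202557, and both are shown apart because their values disagree in size. The members were chosen by gene name with their measured levels on these arrays in view, so their levels and differences are descriptions without a test.

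PLC/PRF/5 and SNU-449 are established lines that differ in their degree of epithelial differentiation. Cells of both lines were kept overnight without serum and then left untreated (control) or given, for the next 16 h, 1 ng/mL TGFβ1, 10 µM galunisertib or these agents combined. Galunisertib (LY2157299) is a small-molecule inhibitor of the TGFβ receptor I kinase. Each of the 4 groups of a line held 3 independent cultures, 1 array each, and no line carried an engineered allele. As models, the groups are limited to 1 cell line each, without the fibroblasts, endothelial cells and macrophages of a tumour. The replicate number was also the slide, so each slide of 8 arrays held 1 culture of every group. On each slide the arrays without TGFβ1 lay in one row and those with TGFβ1 in the other, so the row and TGFβ1 cannot be told apart. The columns were fixed likewise, each holding 1 line either with or without galunisertib. The column therefore cannot be told apart from the line and galunisertib.

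Osteopontin is a secreted, phosphorylated glycoprotein of bone matrix, bile duct epithelium and macrophages, and its level in tumour and plasma is a much-studied marker in HCC. It carries an RGD motif that binds αv and other integrins, and beside it a hidden motif that thrombin lays bare for α4 and α9 integrins. CD44 is a transmembrane glycoprotein whose main ligand is hyaluronan, and some of its splice forms also take part in osteopontin signalling. Alternative splicing of CD44 inserts variant exons into the outer stem of the protein, and metalloproteases and γ-secretase cut it at the membrane. TGFβ signals through SMAD proteins, and SPP1 and CD44 are both among the genes linked to TGFβ-driven changes of tumour cells.

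The 250 bases before each gene's start are shown because the results concern the RNA level of these 2 genes. Some of the transcription factors described further on (RUNX1, ETS1, GLI1, FOS and JUN) are known for motifs searched here. No motif of VDR or MYB, also described further on, was among those searched. Both stretches come from the RefSeq promoter table of build GRCh38.p14, plus strand, 5′ to 3′, for SPP1 at chr4:87975464-87975713 and for CD44 at chr11:35138921-35139170. Capitals mark the letters that matched a motif on either strand.
SPP1: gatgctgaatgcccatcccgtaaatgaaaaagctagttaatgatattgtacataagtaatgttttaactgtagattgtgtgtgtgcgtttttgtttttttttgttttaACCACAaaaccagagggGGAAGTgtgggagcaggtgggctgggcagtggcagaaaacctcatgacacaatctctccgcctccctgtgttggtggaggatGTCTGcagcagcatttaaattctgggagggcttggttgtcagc
CD44: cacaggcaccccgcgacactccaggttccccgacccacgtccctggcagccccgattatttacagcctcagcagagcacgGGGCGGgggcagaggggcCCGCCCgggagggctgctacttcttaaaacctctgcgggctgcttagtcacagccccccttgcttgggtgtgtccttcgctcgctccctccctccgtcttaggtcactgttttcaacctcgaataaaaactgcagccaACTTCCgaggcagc

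The SPP1 stretch is 44.8% G and C and the CD44 stretch 62.4%. Of 11 motifs searched on both strands, 3 matched the SPP1 stretch. A RUNX site (TGTGGT, present in 11% of 35116 such stretches) lay 142 to 137 bases before the start on the minus strand, an ETS site (GGAAGT, 19.5%) lay 125 to 120 bases before it on the plus strand, and the core of the SMAD-binding CAGA box (CAGAC, 38%) lay 43 to 39 bases before it on the minus strand. The CD44 stretch matched 2 motifs. A GC box (GGGCGG, 42.6%) lay 170 to 165 bases before the start on the plus strand and again 152 to 147 bases before it on the minus strand, and an ETS site lay 14 to 9 bases before it on the minus strand. The other 7 motifs were absent from both windows, namely an AP-1 site (TGANTCA, 6.57%), a TATA box (TATAAA, 10.7%), a CCAAT box (CCAAT, 32%), an E-box (CACGTG, 6.34%), a GLI site (GACCACCCA, 0.199%), the SMAD palindrome (GTCTAGAC, 0.182%) and a TCF site (CTTTGAA, 3.8%). No 2 of the marked matches overlapped. A match is a stretch of letters and not a measured binding site.

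Values below are log2 levels. The level is the processed signal of a probe divided by the 75th percentile of the signals on its array, which ranged from 145 to 262 intensity units, so a level of 0 is the signal of that percentile. Between 41.6% and 49.6% of probes were well above background on an array. The lowest 75th percentile was that of replicate 1 of the PLC/PRF/5 control. No spot was saturated. Levels under -4.13 were raised to this floor and have no order. Levels of different probes cannot be set against each other, since each probe binds with its own strength. In bulk RNA, fewer cells with a transcript and less RNA per cell cannot be told apart.

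SPP1 differed between the untreated lines. The SPP1 level in the PLC/PRF/5 control was -2.26, -2.13 and -2.40 in replicates 1, 2 and 3, a mean of -2.26 ± 0.14 (SD, n = 3). In the SNU-449 control it was 0.55, 0.90 and 0.82, a mean of 0.76 ± 0.19. In intensity units these arrays read 30.3, 53.5 and 48.5 for PLC/PRF/5 and 290, 462 and 395 for SNU-449. All SNU-449 control arrays lay above all PLC/PRF/5 control arrays, and the means differed by 3.02 (SE 0.13), or 8.11-fold. Within the 3 slides the difference was 2.80, 3.03 and 3.22. Across all probes, 32.9% of 29259 had SNU-449 control arrays wholly above those of PLC/PRF/5, and 3.52% had a difference at least as high as that of SPP1. With an alternative background correction (normexp with an offset) the difference was 1.92 and the arrays stayed apart.

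TGFβ1 went with a higher SPP1 level in PLC/PRF/5. The TGFβ1 arrays of this line stood at 0.38, -0.17 and 0.00, a mean of 0.07 ± 0.28 (n = 3), and read 285, 228 and 261 intensity units. Every TGFβ1 array was above every control array, with a difference of the means of 2.33 (SE 0.18), or 5.03-fold. Slide by slide the difference was 2.64, 1.95 and 2.40. A complete separation in this direction was seen for 15% of 27020 probes, and for 1.01% together with a difference over 2-fold. Only 0.0444% of the probes differed by as much as SPP1 in this direction. With the alternative background correction the difference was 1.37 and the groups stayed apart.

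**Figure D1:**
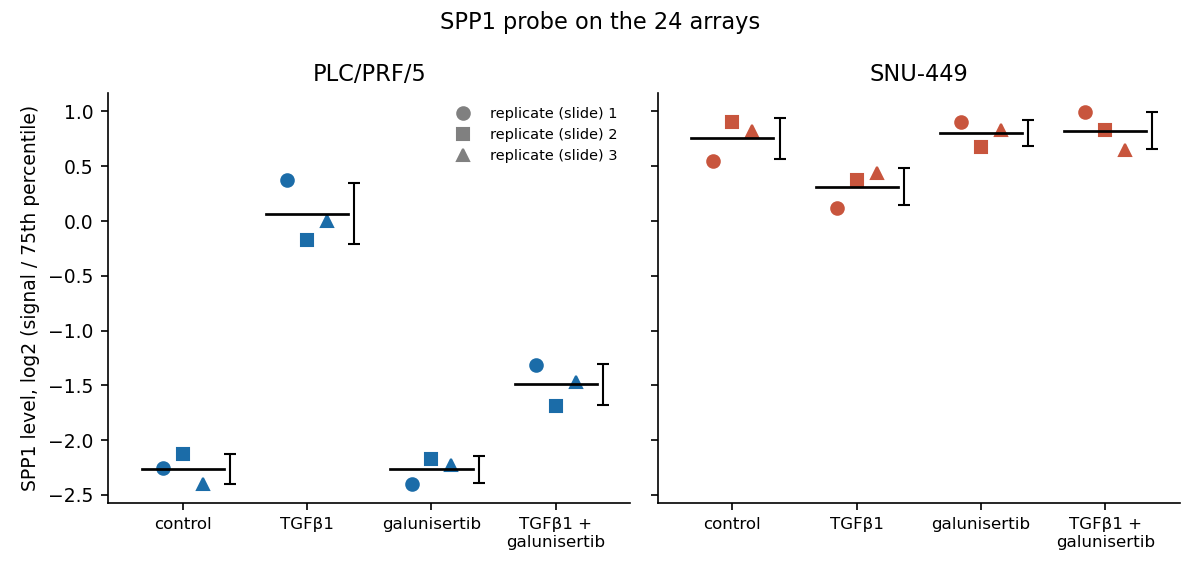
SPP1 log2 level (processed signal over the 75th percentile of the array, y axis) in each of the 8 groups (x axis), 1 point per array and 3 arrays per group, with bars for the mean and SD. In PLC/PRF/5 the TGFβ1 arrays lie between -0.17 and 0.38, the arrays with both agents between -1.69 and -1.32, and all control and galunisertib arrays at or under -2.13, while all SNU-449 arrays lie between 0.12 and 0.99.

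Galunisertib alone left SPP1 in PLC/PRF/5 within the spread of the control. The galunisertib arrays stood at -2.40, -2.17 and -2.23, a mean of -2.27 ± 0.12 (n = 3), and overlapped the control arrays. The difference from control was -0.01, with -0.14, -0.05 and 0.17 on the 3 slides.

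Galunisertib added to TGFβ1 went with a lower SPP1 level in PLC/PRF/5 than TGFβ1 alone, though not as low as in the control. The arrays with both agents stood at -1.32, -1.69 and -1.47, a mean of -1.49 ± 0.19 (n = 3). They were all below the TGFβ1 arrays, by 1.56 on average (SE 0.19), or 2.95-fold, and the difference was -1.69, -1.51 and -1.47 on the 3 slides. Probes with this kind of separation made up 21.9% of 27034, those that also differed over 2-fold made up 2.02%, and 0.381% were as much lower as SPP1. This comparison shares the TGFβ1 arrays with that of TGFβ1 against control.

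With galunisertib present in both groups, SPP1 in PLC/PRF/5 was still higher where TGFβ1 had been added. The arrays with both agents were all above the galunisertib arrays, with a difference of 0.78 (SE 0.13), or 1.71-fold, and of 1.09, 0.48 and 0.76 on the 3 slides. Probes wholly higher in this comparison made up 14.5% of 27010, and 1.55% were as high as SPP1. Against the untreated control the arrays with both agents were higher by 0.77, or 1.71-fold, again without overlap, where 23.6% of 27022 probes were wholly higher. The difference that TGFβ1 made in the presence of galunisertib was 33.4% of that without it on the log2 scale and 17.6% of it on the linear scale of the level. With the alternative background correction the difference between both agents and galunisertib was 0.33, and the arrays with both agents overlapped the control.

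In SNU-449, where SPP1 was high before treatment, the SPP1 level with TGFβ1 was slightly lower than in the control. The TGFβ1 arrays stood at 0.12, 0.38 and 0.44, a mean of 0.31 ± 0.17 (n = 3), against 0.55 to 0.90 in the control. The difference was -0.44 (SE 0.15), or 1.36-fold, with -0.42, -0.53 and -0.38 on the 3 slides. The groups did not overlap, as for 18.2% of 25747 probes in this direction, and 11.3% of the probes were as low. The separation depended on the scaling. In intensity units the control read 290, 462 and 395 and TGFβ1 285, 295 and 332, and the groups overlapped without scaling, with scaling to the array median and in the authors' normalized values, with differences of -0.31, -0.35 and -0.39.

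Galunisertib alone left SPP1 in SNU-449 within the spread of the control. Its arrays stood at 0.91, 0.68 and 0.83, a mean of 0.81 ± 0.12 (n = 3), overlapped the control arrays and differed from them by 0.05. The arrays with both agents stood at 0.99, 0.83 and 0.65, a mean of 0.82 ± 0.17. They overlapped those with galunisertib and those of the control and lay above those with TGFβ1 alone, by 0.51 (SE 0.14), or 1.42-fold, with 0.87, 0.45 and 0.21 on the 3 slides. Probes wholly higher with both agents than with TGFβ1 made up 23.2% of 25747, and 12% were as high as SPP1. With scaling to the array median these groups overlapped and differed by 0.35.

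The direction of the SPP1 difference with TGFβ1 was thus opposite in the lines. The SNU-449 difference minus the PLC/PRF/5 difference was -2.77, and this contrast was not tested. Ordered by mean SPP1 level, SNU-449 with both agents (0.82), with galunisertib (0.81) and untreated (0.76) came first and overlapped each other. SNU-449 with TGFβ1 (0.31) followed, apart from the untreated cells and overlapping PLC/PRF/5 with TGFβ1 (0.07). Then came PLC/PRF/5 with both agents (-1.49), apart from the groups on either side, and last the PLC/PRF/5 control (-2.26) and galunisertib (-2.27), which overlapped. Between the lines the difference was accordingly small with TGFβ1, where it was 0.25 with overlapping arrays. It was 3.07 with galunisertib and 2.31 with both agents, where the arrays did not overlap, as for 30.4% of 29232 and 32.5% of 29273 probes.

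**Figure D2:**
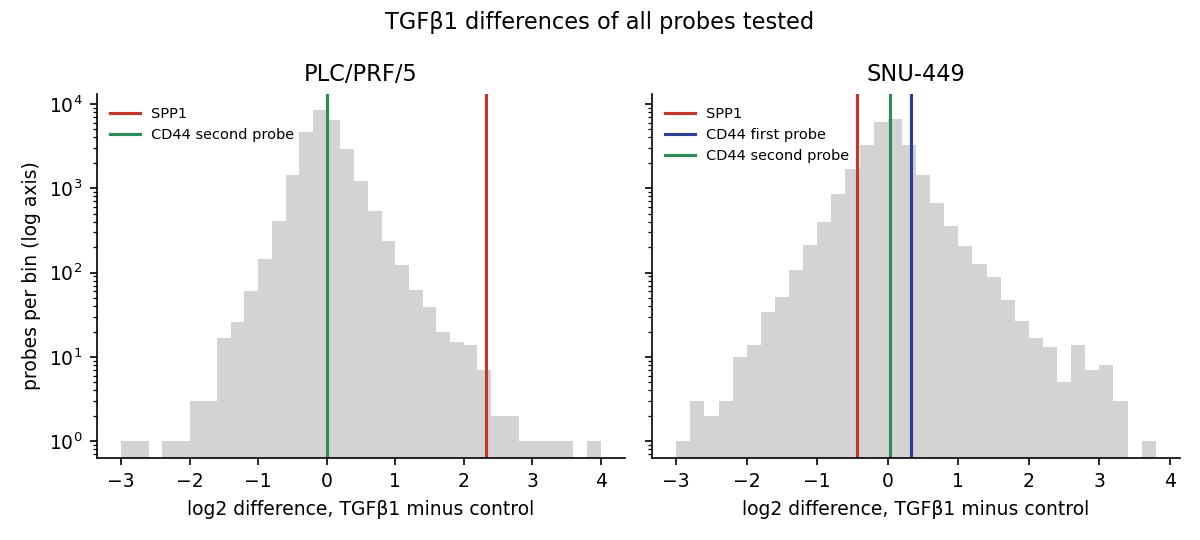
Number of probes (y axis) by difference of TGFβ1 minus control in log2 level (x axis, bins of 0.2) for the 27044 probes tested in PLC/PRF/5 and the 25778 tested in SNU-449, with vertical lines at the SPP1 and CD44 probes measured in the line. The SPP1 line stands in the far right tail in PLC/PRF/5, at 2.33, and left of the centre in SNU-449, at -0.44, while the CD44 probes lie at 0.00 in PLC/PRF/5 and at 0.33 and 0.04 in SNU-449.

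Because SPP1 is printed 10 times on each array, the differences could be taken spot by spot. After outlier flags, 8 to 10 spots per array remained, 219 of 240 in all, and 218 of these were well above background. The coefficient of variation among the spots of an array was 8.21% in the median and ranged from 4.03% to 34.4%. It was highest on the replicate 1 array of PLC/PRF/5 with galunisertib, where the spots read 20.2 to 68.6 units. In PLC/PRF/5 the TGFβ1 difference lay between 2.20 and 2.52 at each of the 9 spot positions measured on all arrays concerned, and the difference between both agents and TGFβ1 between -1.71 and -1.34. The SNU-449 difference with TGFβ1 lay between -0.71 and -0.30 over 10 positions, and that between the untreated lines between 2.97 and 3.15. Spots of 1 array share their RNA, so this spread covers the print and scan and not the cultures. Taking the median of the spots in place of their mean, a choice made after the data were seen, gave 2.33, -1.55 and 0.73 for the PLC/PRF/5 differences of TGFβ1 from control, both agents from TGFβ1 and both from galunisertib.

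**Figure D3:**
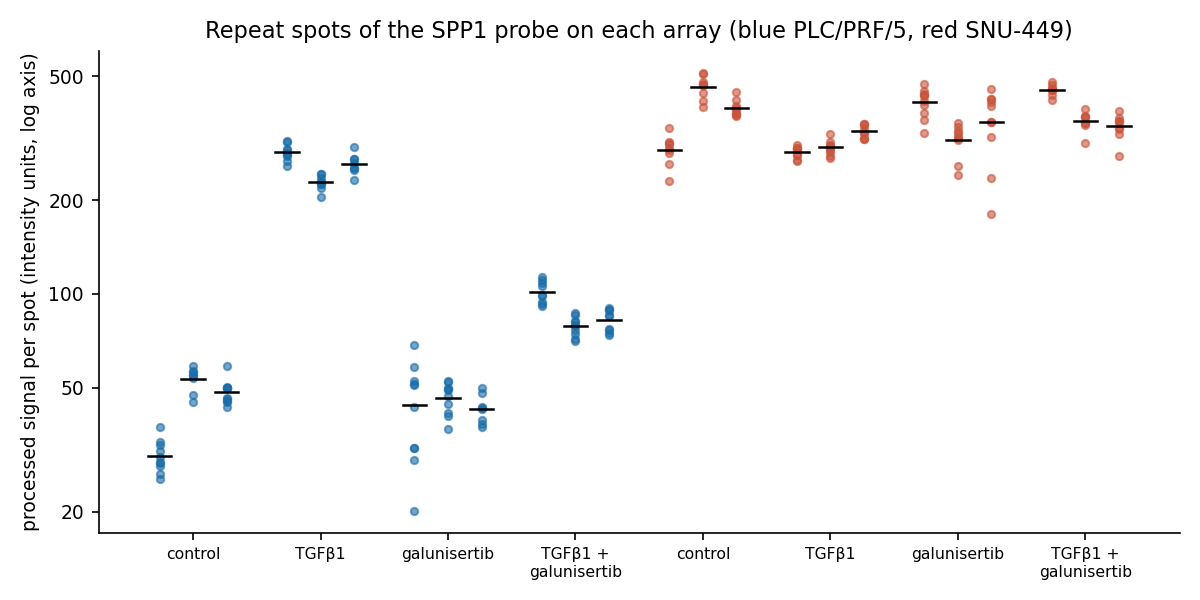
Processed signal in intensity units, without scaling (y axis, log axis), of each SPP1 spot kept on each of the 24 arrays (x axis, grouped by line and treatment), 8 to 10 points per array. Within most arrays the spots lie closer together than the steps between the PLC/PRF/5 groups, and the replicate 1 array of PLC/PRF/5 with galunisertib shows the widest spread, from 20.2 to 68.6 intensity units.

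CD44 differed most between the lines, and its 2 probes gave very different sizes. The first CD44 probe was well above background on 0 of 12 PLC/PRF/5 arrays, where it read at most 8.80 intensity units, and on all SNU-449 arrays. In the SNU-449 control it stood at 5.82, 6.63 and 6.63, a mean of 6.36 ± 0.47 (n = 3), or 11219 to 24449 intensity units. As PLC/PRF/5 gave only an upper bound, the level in SNU-449 was at least 1291-fold higher in the control, 1971-fold with TGFβ1, 1520-fold with galunisertib and 2227-fold with both agents. The bound takes, for each dim array, the higher of its weakest signal well above background and the probe's own signal.

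The second CD44 probe was dim but well above background on all 24 arrays. In the PLC/PRF/5 control it stood at -1.88, -2.48 and -2.41, a mean of -2.26 ± 0.33 (n = 3), and in the SNU-449 control at -1.69, -1.62 and -1.35, a mean of -1.55 ± 0.18. SNU-449 was higher by 0.71, or 1.63-fold, without overlap, and the difference on the 3 slides was 0.19, 0.87 and 1.06. A difference this high was found for 22.5% of probes, against 32.9% wholly higher in SNU-449, so the second probe lay within the common range of differences between the lines. With TGFβ1 the SNU-449 arrays were higher by 0.74, with galunisertib by 0.63 and with both agents by 0.83, again without overlap, as for 37.6%, 30.4% and 32.5% of probes. The control arrays overlapped with the alternative background correction (difference 0.30), and those with both agents overlapped without scaling (difference 0.65). The exons that either CD44 probe covers are not given in the sources used here, so the disagreement cannot be assigned to splice forms.

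**Figure D4:**
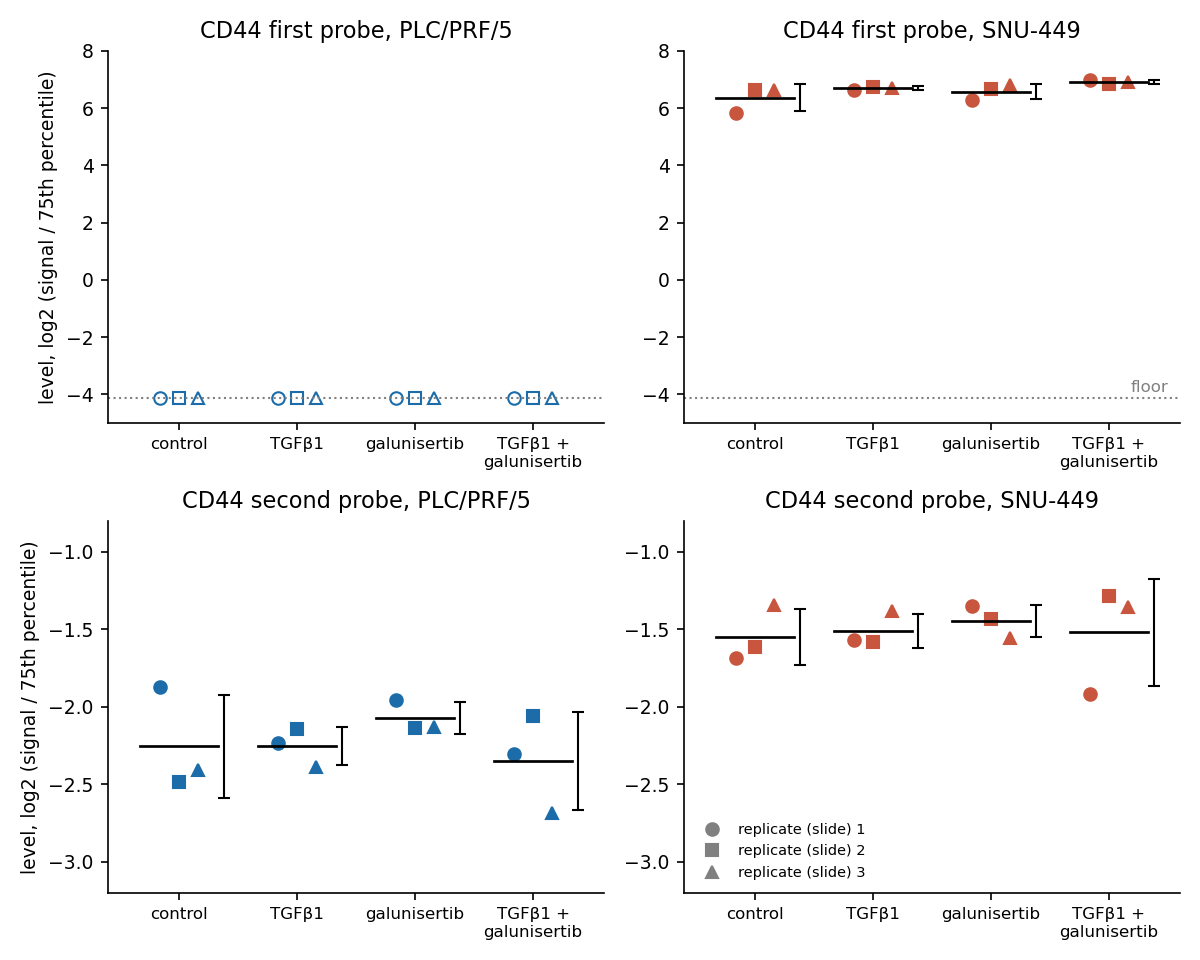
Log2 level of the first and second CD44 probe (separate panels, y axis) in each of the 8 groups (x axis), 1 point per array with the mean and SD of 3 arrays. The first probe lies between 5.82 and 6.98 in SNU-449 and at the floor of -4.13 on all PLC/PRF/5 arrays, while the second lies between -2.68 and -1.88 in PLC/PRF/5 and between -1.92 and -1.29 in SNU-449.

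Treatment differences of CD44 were small beside that between the lines. In SNU-449 with TGFβ1 the first CD44 probe stood at 6.62, 6.74 and 6.71, a mean of 6.69 ± 0.06 (n = 3). This overlapped the control and differed from it by 0.33, of which replicate 1 of the control, the lowest array, made up most. On the 3 slides the difference was 0.80, 0.11 and 0.08, and it was 0.06 without that array. With galunisertib the first probe stood at 6.27, 6.65 and 6.80, a mean of 6.57 ± 0.27, also overlapping the control, with a difference of 0.22 that became -0.05 without replicate 1 of the control.

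The highest levels of the first CD44 probe were those of SNU-449 with both agents. It stood there at 6.98, 6.85 and 6.91, a mean of 6.91 ± 0.06 (n = 3). It lay above TGFβ1 alone by 0.22 (SE 0.05), above galunisertib alone by 0.34 (SE 0.16) and above the control by 0.56 (SE 0.27), without overlap in any of these. Such separation was found for 23.2%, 6.48% and 12.4% of probes in the respective comparison, and 27.3%, 14.4% and 4.44% of 25778 probes were as high. The difference from galunisertib was 0.71, 0.21 and 0.11 on the 3 slides and 0.19 without replicate 1 of galunisertib. The difference from the control was 1.16, 0.23 and 0.28, largest on the slide of replicate 1 of the control, its lowest array. With scaling to the array median the groups overlapped in all of these comparisons, and the difference from TGFβ1 alone was then 0.06. Without scaling the arrays with both agents overlapped those with TGFβ1 alone and those of the control.

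The second CD44 probe differed little between treatments of a line. In PLC/PRF/5 it stood at -2.24, -2.14 and -2.39 with TGFβ1 (mean -2.25 ± 0.12, n = 3), at -1.96, -2.13 and -2.13 with galunisertib (-2.07 ± 0.10) and at -2.31, -2.06 and -2.68 with both agents (-2.35 ± 0.31). In SNU-449 it stood at -1.57, -1.58 and -1.38 with TGFβ1 (-1.51 ± 0.11), at -1.35, -1.43 and -1.56 with galunisertib (-1.45 ± 0.10) and at -1.92, -1.29 and -1.36 with both agents (-1.52 ± 0.34). The arrays overlapped in the 10 comparisons with the control of the line or between both agents and either agent alone, where the differences ran from -0.28 to 0.18. The galunisertib arrays lay narrowly above those with TGFβ1 in PLC/PRF/5, by 0.18, as for 28.7% of probes, and these groups overlapped in SNU-449. For transcripts beside the gene, the 2 probes of the divergent transcript CD44-DT and those of lnc-CD44-1 and lnc-CD44-2 were well above background on 0 arrays.

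The genes whose levels ran most like SPP1 over the 12 arrays of a line differed between the lines. In PLC/PRF/5, among 14856 genes well above background on all arrays, these were HOOK3 (Pearson r 0.981), an adaptor of microtubule motors, SERPINA3 (0.973), an acute-phase protease inhibitor of hepatocytes, CABP7 (0.968), NR5A2 (0.967), a nuclear receptor of the liver, and RGL1 (0.967). Their pattern was that of SPP1, since HOOK3 stood at a mean of 1.21 in the control, 2.11 with TGFβ1, 1.11 with galunisertib and 1.42 with both. In all, 104 genes exceeded an r of 0.9. In SNU-449 the leading genes were ZNF883 (0.911), lnc-FAM160A1-1 (0.909), FBXO36 (0.908), MIR99AHG (0.903) and FZD4 (0.901), a Wnt receptor, among 13977 genes, of which 5 exceeded 0.9. The points are 12 arrays in 4 groups that share slides, and the leading 5 changed with the measure, since Spearman's rho kept 0 of 5 in either line and scaling to the array median 3 of 5.

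For the first CD44 probe in SNU-449 the leading genes were RHBDD3 (0.917), ATIC (0.891), CCT4 (0.885), a chaperonin subunit, GART (0.868) and POPDC2 (0.855). Of these, ATIC and GART act in purine synthesis, and 1 gene, RHBDD3, exceeded 0.9. For the second probe in PLC/PRF/5 the leading genes were AGTRAP (0.865), lnc-KCNT1-1 (0.855), FMNL3 (0.829), EMILIN3 (0.821) and lnc-CDH4-1 (0.821), with none above 0.9. No gene leads for more than 1 of these 4 probe and line pairs.

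As a check on the agents, SMAD7, an inhibitory SMAD and known TGFβ target, was tested by limma's moderated test with Benjamini-Hochberg adjustment over all genes. With TGFβ1 it rose by 0.80 in PLC/PRF/5 (adjusted p = 0.00089) and by 0.65 in SNU-449 (adjusted p = 0.0113). Galunisertib alone lowered SMAD7 by 0.44 in PLC/PRF/5 (adjusted p = 0.041) and by 1.90 in SNU-449 (adjusted p = 0.000151), while SPP1 overlapped the control in both lines. The SMAD7 call with galunisertib in PLC/PRF/5 was lost without any 1 of 5 arrays and in 7 of 11 other settings, among them the slide as a block (adjusted p = 0.067).

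Partners of osteopontin and CD44 were tested in 12 lists of 85 genes, from limma fits of 16684 genes in PLC/PRF/5, 16101 in SNU-449 and 17902 between the lines. Between the untreated lines 34 of the 69 list genes tested were higher in SNU-449 and 17 lower, beside 34.6% and 33.9% of all genes, with a median difference of 0.40 against -0.06 over all genes. Among the 6 integrin subunits measured that bind the RGD motif of osteopontin, ITGA5 (α5) was lower in SNU-449, by 3.16 (SE 0.11, adjusted p = 3.49e-15), and 5 were higher. ITGB1 (β1) was higher by 2.25 (SE 0.11) and ITGAV (αv) by 1.08 (SE 0.11), and ITGB3 and ITGB6 were at least 6.96-fold and 6.79-fold higher. ITGA4, whose α4 chain binds the thrombin-exposed motif, was at least 23.3-fold higher in SNU-449 on its brightest probe, with log2 differences of 3.78 and 1.28 on its other 2, and F2, which encodes thrombin, at least 925-fold higher in PLC/PRF/5. On the CD44 side HAS3, a hyaluronan synthase, was higher in SNU-449 by 6.90 (SE 0.16) on its brighter probe and by 0.84 on its other one, and HYAL1, a hyaluronidase, at least 44.4-fold higher in PLC/PRF/5. ESRP2, an epithelial splicing factor that favours CD44 variant exons, was lower in SNU-449 by 0.91 (SE 0.07, adjusted p = 2.47e-10), and MMP14, a protease that sheds CD44, at least 13.9-fold higher.

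Under TGFβ1 in PLC/PRF/5, where SPP1 was 5.03-fold higher, 6 of the 56 list genes tested rose and 4 fell, beside 6.35% and 7.21% of all genes, with a median of 0.03 against -0.03. Of 7 transcription factors known to act on SPP1, GLI1, the hedgehog effector, rose by 1.49 (SE 0.12, adjusted p = 4.59e-05) and RUNX1 by 0.70 (adjusted p = 0.0384), while FOS fell by 0.72 (adjusted p = 0.00101) and MYB by 0.49 (adjusted p = 0.0246). The RUNX1 call was lost without any 1 of 5 arrays, the MYB call without any 1 of 4, and the FOS and MYB calls under other scalings. CEMIP, which breaks hyaluronan down, fell by 1.26 (SE 0.13, adjusted p = 0.000169). Over the list genes, 5 or 6 were called in place of 10 with any 1 array left out, and 3 with scaling to the array median or without scaling.

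Galunisertib added to TGFβ1 in PLC/PRF/5 went with 20 list genes up and 6 down of 56, beside 25.8% and 13.2% of all genes, with a median of 0.21 against 0.06. GLI1 fell by 1.88 (SE 0.12, adjusted p = 3.5e-06), in the direction of SPP1, and CEMIP rose by 2.43 (adjusted p = 9.19e-07). FOS rose by 1.35 and JUN, its AP-1 partner, by 1.01 (adjusted p = 5.93e-06 and 0.000688). The balance depended on the scaling, since 11 list genes were called higher and 14 lower with the percentile taken over bright probes, and 5 higher and 2 lower without scaling. With TGFβ1 added to galunisertib, where SPP1 was 1.71-fold higher, limma called 0 of 56 list genes, beside 8.52% of all genes, of which 17 had an unadjusted p under 0.05, and the methods' t-test called 0.

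In SNU-449 with TGFβ1, where SPP1 was 1.36-fold lower, 14 of 63 list genes rose and 2 fell, beside 5.63% and 4.7% of all genes, with a median of 0.13 against 0.02. Among the 6 RGD integrin subunits 4 rose, namely ITGB6 by 1.22 (SE 0.25, adjusted p = 0.0105), ITGAV by 0.84 (SE 0.11, adjusted p = 0.001), ITGA5 by 0.74 (adjusted p = 0.00259) and ITGB5 by 0.38 (adjusted p = 0.0348), the last a call that was lost without any 1 of the 6 arrays and with the slide as a block (adjusted p = 0.058). VDR, the vitamin D receptor, which acts on SPP1, rose by 1.29 (SE 0.15, adjusted p = 0.000349) and JUN fell by 0.56 (adjusted p = 0.00872), a call lost under other scalings. Without replicate 2 of TGFβ1 8 list genes were called. With scaling to the array median 8 list genes were called higher and 0 lower, and without scaling 13 and 0.

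With galunisertib added to TGFβ1 in SNU-449, 4 list genes rose and 15 fell of 63, beside 9.57% and 7.32% of all genes, with a median of -0.20 against 0.01. Of the 6 RGD integrin subunits 5 fell, led by ITGB6 (by 1.64, adjusted p = 0.00123) and ITGAV (by 0.76, adjusted p = 0.00115), and VDR fell by 1.58 (adjusted p = 5.82e-05). With scaling to the array median 0 list genes were called higher and 15 lower. Galunisertib alone called COL1A1 (-2.61, adjusted p = 0.000422), ITGB6 (-2.16, adjusted p = 0.000992), VDR (-0.59), ITGB5 (-0.55) and EZR (0.28), 5 of 63, beside 7.27% of all genes. The EZR call was lost without any 1 of the 6 arrays and with the slide as a block (adjusted p = 0.072), and the VDR call without any 1 of 4. In PLC/PRF/5 it called RUNX1 (0.91, adjusted p = 0.0269), CEMIP (0.87, adjusted p = 0.0052), TGM2 (0.71), FOS (0.43) and GLI1 (-0.55), 5 of 56, beside 5.39%. Of these, the RUNX1 and GLI1 calls were lost without any 1 of 5 arrays, the FOS call without any 1 of 4 and the TGM2 call without either of 2. With TGFβ1 added to galunisertib in SNU-449, ITGB6, COL1A1 and ITGB5 were called higher, 3 of 63, beside 1.86%, and the ITGB5 call was lost without any 1 of the 6 arrays and with the slide as a block (adjusted p = 0.0841). The difference that an agent made was itself unequal between the lines in limma's interaction term for 11 of 69 list genes with TGFβ1, beside 8.62% of all genes, and for 7 with galunisertib, beside 5.87%. Several of these genes lay at the floor in 1 line.

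**Figure D5:**
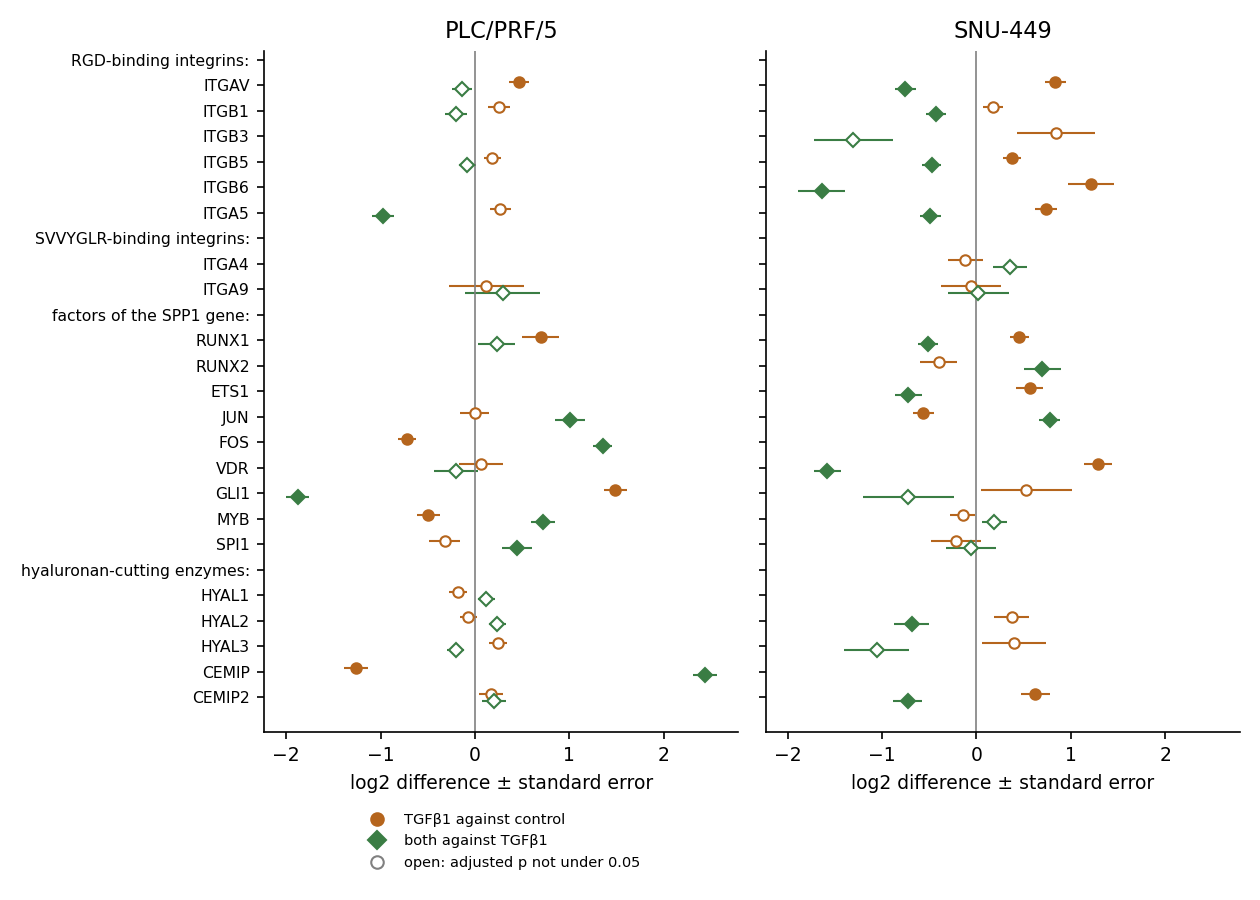
Log2 differences (x axis, with SE bars) of named partner genes of osteopontin and CD44 for TGFβ1 minus control and for both agents minus TGFβ1, in PLC/PRF/5 and SNU-449, from limma fits with 3 arrays per group, filled where the adjusted p was under 0.05 and open otherwise. ITGB6, ITGAV and VDR lie right of 0 with TGFβ1 and left of 0 with galunisertib added in SNU-449, and GLI1 does so in PLC/PRF/5.

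Markers of cells that could add osteopontin were checked as well. Of 6 macrophage markers on the array, 3 were well above background on all PLC/PRF/5 arrays and 1 on all SNU-449 arrays, all at low levels, and CD163 was so on none. Their summed level in PLC/PRF/5 was 53.5% to 65.3% of the 75th percentile in the control, 69.2% to 95.9% with TGFβ1, 58.0% to 83.3% with galunisertib and 48.1% to 64.1% with both agents. CSF1R was well above background on the 3 PLC/PRF/5 arrays with TGFβ1 only, at least 2.63-fold above the control, and so moved with SPP1, and its part in the SPP1 difference was not tested. Of the 4 macrophage markers tested with TGFβ1 in PLC/PRF/5, 1 was called higher, beside 6.35% of all genes, and 3 were not called. In SNU-449 the macrophage sums overlapped in all groups, from 22.7% to 55.9%. Of 5 stellate cell and fibroblast markers DCN and LUM were well above background on no array, and the PLC/PRF/5 sum, nearly all PDGFRB, was 157% to 174% in the control, 259% to 270% with TGFβ1, 82.8% to 120% with galunisertib and 119% to 139% with both, which was not tested against SPP1 either. In SNU-449 that sum, led by COL1A2 and RGS5, was 7312% to 8703% in the control and 10841% to 12260% with TGFβ1. It was 7131% to 8890% with galunisertib and 8086% to 9807% with both, and was not tested against SPP1. Of the 2 stellate cell and fibroblast markers tested with TGFβ1 in PLC/PRF/5, 1 was called higher and 1 lower, beside 6.35% and 7.21% of all genes. Of 4 endothelial markers PECAM1 and KDR were well above background on no array. VWF, on its brighter probe, was well above background on 12 arrays of each line, at low levels. CDH5 was well above background on 8 PLC/PRF/5 and 5 SNU-449 arrays.

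The labelled cell type was checked on its markers. All 5 hepatocyte markers (ALB, APOA1, TTR, SERPINA1 and HNF4A) were well above background on every PLC/PRF/5 array, while in SNU-449 3 of 5 were, all dimly, and HNF4A on none. All 4 epithelial markers were well above background on every PLC/PRF/5 array and 3 of 4 on every SNU-449 array, where EPCAM was above it on 1.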

How the data were processed

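RNA from 24 cultures of the lines PLC/PRF/5 and SNU-449 was hybridised to one-colour Agilent arrays, and the submitters' processing notes name Agilent Feature Extraction 10.7.3.1. The authors deposited, for each array, spot intensities that the scanner software had already background-subtracted (the processed signal), and a table of log2 values for 30913 probes. Over the 19267 probes compared, differences between arrays in that table followed those of the processed signal (correlation 0.999, slope 1.00), so the authors' values are on the log2 scale and centred on the median of each probe. This table served as an alternative. The individual arrays' columns of both kinds of file could all be tied to a sample.

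Control spots and spots with an outlier flag (111 to 216 per array) were left out, and the remaining spots of a probe were averaged. Signals were divided by the 75th percentile over the non-control spots of the array, raised to 5.70% of it where lower (a floor set at the weakest signal well above background of an array, as the median of the 24 arrays), and put on the log2 scale. Of 58201 non-control probes (60901 spots), 31104 were named through RefSeq accessions (GRCh38 table, names only), 10719 through LNCipedia identifiers, and 16378 stayed unnamed. A probe entered a fit when at least 1 group in that fit had it well above background on each array. A gene was represented by its brightest probe, chosen by the mean over all arrays.

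SPP1 and CD44, the gene lists and the motifs were chosen with earlier results of these data known. The member probes are described without a test. Partner genes were tested with limma 3.58.1 (lmFit, eBayes, R 4.3.3) over the 12 arrays of a line, or all 24 between lines, and called at a Benjamini-Hochberg adjusted p under 0.05 over all genes tested. The fit was tested on simulated data. Named are, per comparison and list, the called genes with the largest change (at most 4), the 5 genes most correlated with each member probe in a line, SMAD7 as a check on the agents, and marker genes by their counts. Groups and replicate numbers came from the labels. Same-numbered cultures share a slide, and their deviations from the group means correlated above 0.1 in all 3 pairs for TGFβ1 against control in PLC/PRF/5 (0.16 to 0.29) and SNU-449 (0.14 to 0.23) and for both agents against TGFβ1 in SNU-449 (0.11 to 0.26), and not in all pairs for the other 5 comparisons. The p-values measure only the spread between independent cultures of 1 line, and with 3 arrays per group their number is what bounds the precision. Alternatives were other scalings, normexp background correction of the median spot signals (offset 50), the authors' values, other filters on dim probes, a smaller floor, the mean of a gene's probes, the slide as a block, the study's limits (fold above 2 and unadjusted p under 0.001), the methods' t-test, and each array left out. Tables were handled with the package data.table (1.17.8), pandas 2.3.3 and numpy 2.4.6 (Python 3.11.15), and figures drawn with matplotlib 3.10.9.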

Additional observations from a re-analysis of the deposited data

Results flagged for a closer look

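SPP1 moved in opposite directions in the lines. With TGFβ1 every PLC/PRF/5 array was above and every SNU-449 array below its controls, as for 15% of 27020 and 18.2% of 25747 probes. The SNU-449 groups overlapped with scaling to the array median, without scaling and in the authors' values. The SNU-449 difference minus the PLC/PRF/5 difference was -2.775 on the log2 scale. With galunisertib added to TGFβ1 the directions were turned, and the corresponding value was 2.069. The arrays again stood apart, as for 21.9% of 27034 and 23.2% of 25747 probes, but those of SNU-449 overlapped with scaling to the array median. Neither difference between the lines was tested.

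For 11 of 69 partner genes the TGFβ1 difference itself differed between the lines in limma's interaction term, beside 8.62% of all genes. SNU-449 minus PLC/PRF/5, it was 1.262 for CEMIP (adjusted p = 4.97e-06), 1.225 for VDR (adjusted p = 0.00906), 1.216 for ITGB6 (adjusted p = 0.00663), 0.964 for F2 (adjusted p = 1.79e-05) and 0.9224 for COL1A1 (adjusted p = 0.0307). It was 0.7623 for VCAN (adjusted p = 0.0411), 0.7423 for SLC7A11 (adjusted p = 0.0217), 0.6022 for FOS (adjusted p = 0.0449) and 0.5587 for MMP14 (adjusted p = 0.0279). It was -0.7449 for ACAN (adjusted p = 0.044) and -0.7378 for ESRP2 (adjusted p = 2.59e-05). Of these, ESRP2 and VDR kept their call in 12 of 12 fits with an array left out, as did CEMIP, ITGB6 and F2, whereas SLC7A11 did so in 8, VCAN in 3, ACAN, COL1A1 and MMP14 in 2 and FOS in 1. With scaling to the array median 3 of the 11 were called, and without scaling 2. MMP14, COL1A1 and ITGB6 lay at the floor in PLC/PRF/5 and CEMIP in SNU-449, so their values are the change in the other line alone. ACAN, FOS and the F2 control in SNU-449 and the VCAN control in PLC/PRF/5 lay near the floor, which limits the change that could be measured there.

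The galunisertib difference differed between the lines for 7 of 69 partner genes, beside 5.87% of all genes. SNU-449 minus PLC/PRF/5, it was -2.611 for COL1A1 (adjusted p = 4.68e-06), -2.289 for ITGB6 (adjusted p = 3.57e-05), -1.012 for ETS1 (adjusted p = 0.00886), -1.001 for RUNX1 (adjusted p = 0.0116), -0.8719 for CEMIP (adjusted p = 0.00077), -0.6769 for ITGB5 (adjusted p = 0.00273) and 0.7244 for ITGA5 (adjusted p = 0.0108). All 7 kept their call in 12 of 12 fits with an array left out. Other settings were less kind, since scaling to the array median kept 2 of the 7 and no scaling kept 4. The call was lost in 5 of 10 other settings for ETS1, 4 of 11 for ITGA5, 3 of 10 for CEMIP and 2 of 11 for ITGB5. ITGB6 lost it in 1 of 10 and COL1A1 in 0 of 10. For RUNX1 it was lost in 1 of 11, and the value turned to 0.0013 with normexp. CEMIP lay at the floor in SNU-449 and COL1A1 in PLC/PRF/5, so their values are the change in the other line alone. The PLC/PRF/5 controls of ITGB6 and ETS1 also lay at the floor, so a fall there could not be measured.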

How the results depend on the processing

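The size of the SPP1 and CD44 differences depended mainly on the background correction and the scaling, and their direction did not turn wherever the groups stood apart. With normexp the SPP1 difference was 1.92 between the control lines, 1.37 for TGFβ1 against control, -1.08 for both agents against TGFβ1 and 0.33 for both against galunisertib in PLC/PRF/5, and that of the first and second CD44 probe between the lines 8.14 and 0.30. The normexp setting adds an offset of 50 units to every signal, which by itself shrinks log2 differences of dim probes. SPP1 read 30.3 to 53.5 units in the PLC/PRF/5 control. The offset and the background estimate were not tested apart. With scaling to the array median SPP1 and the second CD44 probe differed between the lines by 3.39 and 1.08, and the first CD44 probe by 0.0621 between both agents and TGFβ1 in SNU-449. Without scaling this last value was 0.0449, the SPP1 differences were 2.58 (TGFβ1 against control) and 0.97 (both agents against galunisertib) in PLC/PRF/5 and 0.33 (both against TGFβ1) in SNU-449, and the second CD44 probe differed by 0.25 between TGFβ1 and control in PLC/PRF/5. In the authors' values the first CD44 probe differed by 11.89 between the lines. The other 139 of 148 values for treatments moved by less than the spread between replicates. They include the slide as a block and the smaller floor, which leave these values unchanged by construction. All 120 values with an array left out, and all 18 such values between the lines, also stayed within that spread. With 3 arrays per group, leaving out 1 array cannot move a difference past it, so these values say nothing on stability. The median of all probes itself was shifted by 0.37 between the control lines with scaling to the array median and by 0.25 for TGFβ1 against control in PLC/PRF/5 without scaling.

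Counts of partner genes called moved more. With scaling to the array median they were 3 (from 10) and 8 (from 16) for TGFβ1 in PLC/PRF/5 and SNU-449, 2 (from 5) for galunisertib in either line, and 3 (from 11) and 2 (from 7) for the TGFβ1 and galunisertib differences between the lines. Without scaling they were 3 for TGFβ1 and 7 (from 26) for both agents against TGFβ1 in PLC/PRF/5, 0 and 3 for galunisertib alone in PLC/PRF/5 and in SNU-449, and 2 and 4 for the differences between the lines. For both agents against galunisertib in PLC/PRF/5 (0 calls) they were 7 with normexp, 2 with the percentile of bright probes, with the authors' values and with probes bright on all arrays, and 1 with the mean of a gene's probes. In SNU-449 the 3 calls became 0 with the compared arrays alone and with the methods' t-test. Galunisertib in PLC/PRF/5 gave 2 with normexp and with no filter, 1 with the compared arrays alone and 0 with the t-test, and in SNU-449 2 and 0 with the last pair. With no filter TGFβ1 in PLC/PRF/5 gave 6. The TGFβ1 differences between the lines numbered 5 in the authors' values, 3 with probes bright on all arrays, 7 with no filter and 6 with the smaller floor, and the galunisertib ones 4 in the authors' values and 3 with probes bright on all arrays, a filter that left 31 (from 51) between the control lines. The study's limits gave 2 and 2 for TGFβ1, 6 and 3 (from 19) for both agents against TGFβ1, 0 and 2 for galunisertib alone in PLC/PRF/5 and in SNU-449, and 3 and 4 for the differences between the lines.

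With an array left out the counts were 48 to 51 between the control lines, 5 to 6 and 8 to 13 for TGFβ1 in PLC/PRF/5 and SNU-449, 20 to 23 and 12 to 19 for both agents against TGFβ1, 0 to 5 and 2 to 3 for both against galunisertib, 2 to 4 and 3 to 7 for galunisertib, and 5 to 9 and 7 to 9 for the TGFβ1 and galunisertib differences between the lines. The lowest SNU-449 counts, 8 and 12, were those without replicate 2 of TGFβ1, and the count of 5 for both against galunisertib was that without replicate 3 of galunisertib. With the slide as a replicate block the counts were 9 and 13 for TGFβ1 and 25 and 16 for both agents against TGFβ1. They were 0 and 2 for both against galunisertib, 6 and 5 for galunisertib, 11 and 7 for the differences and 51 between the lines. The member differences cannot change with this block, because each slide held an array of every group. Their staying the same therefore says nothing on stability.

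Among 141 called values of named genes, 1296 of 1515 alternatives kept the call, 216 lost it and 3 turned the direction, namely ACAN with TGFβ1 in PLC/PRF/5 with normexp (-0.0142), COL1A1 in the TGFβ1 difference between the lines in the authors' values (-1.51) and RUNX1 in the galunisertib difference between the lines with normexp (0.0013). With an array left out 193 of 960 calls were lost. The cause was not tested. Of the 5 genes most like a member, Spearman's rho kept 0 and scaling to the array median 3 for SPP1 in either line, 0 and 2 for the first CD44 probe, and 2 and 1 for the second. The first CD44 probe and several partner genes lay near background in 1 line, where only a bound could be given.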
